A study of Mus musculus with 24 samples.

Results

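The data described here come from tumours of 4T07, a mouse mammary carcinoma line, and compare the quiescent with the cycling cells of each tumour. They comprise 8 of the 24 libraries of the study: 4 tumours, each sorted into a p27K high library and its p27K negative partner. The members were taken by name, as the 4 columns of counts whose headings give the 4T07 line and the high gate and the 4 that give the low gate, and were paired by the tumour number that both carry. Every mouse was of strain Balb/cJ, was injected with 250000 cells into a mammary fat pad, and its tumour was taken on day 14. All groups shared the same 2 transduced proteins, mCherry and an mVenus-p27k fusion. The other 16 libraries come from tumours of the lines D2A1 and EMT6, sorted by the same 2 gates, and enter only the last comparison.

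4T07 is a Balb/c mammary carcinoma line from the same parental tumour as the metastatic line 4T1. The reporter p27K is a p27 protein altered so that it no longer blocks cyclin-dependent kinases, and it therefore marks cells in which p27 is kept from breakdown without arresting them. When a cell leaves the cycle, the retinoblastoma protein family with E2F factors, and the DREAM complex built on MuvB proteins, switch off genes of DNA replication and of mitosis. Tumours of this kind also hold host cells: macrophages and other myeloid cells that eat debris, present antigen and secrete chemokines, and T and NK cells that can kill tumour cells. Cells were stained for CD45, the surface protein of leukocytes, before sorting, but no source used here gives the sort gates. In bulk libraries such as these, fewer cells of a type and less RNA per cell cannot be told apart.

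The high libraries held 27887221 to 45460880 counts and the negative libraries 28961831 to 35197694 counts. Tumour 2 stood apart in its high library, with 13500 detected genes, while the remaining high libraries had 15094 to 15370 and the negative ones 15523 to 15876. Changes below are log2 ratios, high gate over negative gate of the same tumour, each with its standard error from edgeR's quasi-likelihood fit (n = 4 tumours). A gene was called where that test gave a Benjamini-Hochberg adjusted p under 0.05 over 12849 genes. Levels are CPM, the counts scaled to a common library size, with TMM factors, and are listed for tumours 1 to 4 in that order. Of all genes tested 45.7% were called, 22.1% as rises and 23.6% as falls, the median change was -0.00, and 3.09% rose and 10.3% fell by at least 2-fold. The counts of called members in each list below are to be read beside these shares.

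The labels were first checked on p27 itself and on a marker of cycling cells. Cdkn1b, the gene of p27 (chromosome 6, 134920401 to 134925513 on GRCm38, plus strand), was at 212, 232, 249 and 196 CPM in the negative gate and 393, 565, 409 and 317 CPM in the high gate. All high libraries lay above all negative ones, and the rise was 0.89 ± 0.11 (edgeR adjusted p = 0.000717). Whether reads of the transduced fusion count towards this gene was not tested. Mki67, which encodes the Ki-67 protein of cycling nuclei (chromosome 7, 135689784 to 135716361, minus strand), was at 1459, 2032, 1732 and 1654 CPM in the negative gate and 9.89, 25.3, 18.7 and 25.1 CPM in the high gate. No high library overlapped a negative one, and the change was -6.52 ± 0.21. Both gates carried the intermediate filament gene Vim at 3551 to 3783 and 3144 to 4243 CPM and the simple keratin gene Krt8 at 312 to 384 and 199 to 289 CPM. Of the other markers of mammary epithelium, Epcam was at no more than 1.41 CPM in every library. Cdh1 had 323 to 619 counts per library and Krt18 5912 to 10698.

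Promoters were compared to see what the genes with the deepest falls share in sequence. RefSeq promoters on GRCm38.p6, each 250 bases before to 50 bases after the annotated start, were found for 9995 of the 12849 tested genes. They were searched on both strands for 5 kinds of word. The cell cycle homology region of MuvB targets was sought as TTTGAA and in its variant TTCGAA. The E2F word was sought as GCGGGAA, in the variant form GCGCGAA and in the variant form GCGCCAA. The hypoxia response word was sought as ACGTG and in the variant form GCGTG. The remaining words were CCAAT, bound by NF-Y, and the core GAGGAA of the myeloid factor PU.1 and other ETS factors. The words do not contain one another, although ACGTG also forms the middle of the E-box CACGTG. Of the promoters of mitotic kinase and kinesin genes 66.7% (16 of 24) held the cell cycle homology word between 50 bases before and 50 bases after the start, against 43.3% (13 of 30) for kinetochore genes and 3.53% of the promoters of all tested genes. The following promoters were picked from those that hold the word, among genes with some of the deepest falls. Genes that fell more deeply than Cenpf and are not shown include Spc24, Nuf2, Kif2c, Kif14 and Knl1. The promoter of Knl1 also holds the word. The matched word is in capitals. Every promoter printed here and below holds its word, so these examples do not show how often falling or rising genes carry it. Kif18b (build GRCm38.p6, chr11:102925075-102925374, minus strand) encodes a mitotic kinesin, and Cenpf (same build, chr1:189688037-189688336, minus strand) a large kinetochore protein.
Kif18b: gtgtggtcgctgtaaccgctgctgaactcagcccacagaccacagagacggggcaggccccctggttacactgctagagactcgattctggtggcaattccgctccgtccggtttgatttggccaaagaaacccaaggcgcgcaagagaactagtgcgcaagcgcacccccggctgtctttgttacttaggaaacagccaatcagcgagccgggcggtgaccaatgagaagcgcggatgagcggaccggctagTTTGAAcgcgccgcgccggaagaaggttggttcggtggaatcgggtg
Cenpf: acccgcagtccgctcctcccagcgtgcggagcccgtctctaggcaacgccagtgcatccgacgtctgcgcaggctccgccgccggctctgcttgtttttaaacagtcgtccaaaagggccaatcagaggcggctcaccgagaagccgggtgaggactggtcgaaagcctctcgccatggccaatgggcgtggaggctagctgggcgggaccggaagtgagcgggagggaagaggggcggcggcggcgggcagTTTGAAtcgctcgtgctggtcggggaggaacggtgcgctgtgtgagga

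Replication genes held another word. E2F words were present in 61.1% (22 of 36) of the promoters of the licensing and replication fork list, against 14.9% of those of all tested genes and 16.7% (4 of 24) of mitotic kinase and kinesin promoters. Promoters of this list are shown with the E2F word in capitals: Clspn (GRCm38.p6, chr4:126556730-126557029, plus strand), which encodes the checkpoint adaptor claspin, and Prim1 (GRCm38.p6, chr10:128014965-128015264, plus strand), the catalytic subunit of primase, whose match lies on the opposite strand.
Clspn: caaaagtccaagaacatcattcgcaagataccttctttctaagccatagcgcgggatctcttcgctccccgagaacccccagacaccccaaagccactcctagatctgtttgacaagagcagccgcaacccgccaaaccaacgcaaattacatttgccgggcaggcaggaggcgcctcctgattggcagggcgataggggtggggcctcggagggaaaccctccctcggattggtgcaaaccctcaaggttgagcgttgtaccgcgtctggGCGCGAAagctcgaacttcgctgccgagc
Prim1: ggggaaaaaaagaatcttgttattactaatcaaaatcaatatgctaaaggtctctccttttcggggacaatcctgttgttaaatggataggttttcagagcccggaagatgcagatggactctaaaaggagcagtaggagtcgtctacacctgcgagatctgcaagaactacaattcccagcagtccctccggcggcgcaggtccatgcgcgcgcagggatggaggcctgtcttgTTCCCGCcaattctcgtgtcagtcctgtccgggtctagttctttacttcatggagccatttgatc

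The hypoxia word stood in 83.3% (20 of 24) of the promoters of the hypoxia list and 62.9% of those of all tested genes. The macrophage list had 30.4% (7 of 23) and the glycolysis list 64.7% (11 of 17). Lists not chosen for hypoxia held the word as often, such as translation initiation (88.2%, 15 of 17) and ribosome biogenesis (85.2%, 23 of 27). The word was therefore not particular to the hypoxia list. The PU.1 word stood in 78.3% (18 of 23) of macrophage list promoters and 57.9% (11 of 19) of pan-leukocyte promoters, against 26.8% of all tested genes. Car9 (GRCm38.p6, chr4:43506776-43507075, plus strand), the membrane carbonic anhydrase used as a hypoxia marker, and C1qc (GRCm38.p6, chr4:136892865-136893164, minus strand), a chain of complement C1q made by macrophages, are printed as examples of a rising and a falling gene. Capitals mark the hypoxia word in Car9 and the PU.1 word in C1qc, both on the opposite strand. These matches describe the letters of the windows and not binding in these cells.
Car9: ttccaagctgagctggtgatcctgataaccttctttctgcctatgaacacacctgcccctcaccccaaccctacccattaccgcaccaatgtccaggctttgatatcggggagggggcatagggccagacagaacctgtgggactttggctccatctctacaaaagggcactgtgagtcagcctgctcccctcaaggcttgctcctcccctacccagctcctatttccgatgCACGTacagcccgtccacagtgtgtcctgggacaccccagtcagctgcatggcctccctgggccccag
C1qc: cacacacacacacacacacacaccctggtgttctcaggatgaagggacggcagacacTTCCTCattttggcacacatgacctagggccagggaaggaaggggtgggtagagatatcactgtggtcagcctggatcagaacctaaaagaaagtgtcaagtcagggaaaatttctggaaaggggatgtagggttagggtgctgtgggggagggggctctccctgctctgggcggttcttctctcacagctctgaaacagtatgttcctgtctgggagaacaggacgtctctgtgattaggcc

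Genes of DNA replication were lower in the p27K high cells throughout the pathway. All 45 tested genes of origin licensing and the replication fork fell, with a median of -2.41, and each was lower in every high library than in any negative library, which held for 21.0% of all genes tested. Clspn was at 83.6, 104, 92.5 and 101 CPM in the negative gate and 2.02, 3.04, 3.14 and 3.45 CPM in the high gate, a change of -5.05 ± 0.13. Lig1, the ligase that joins Okazaki fragments, was at 185, 203, 194 and 199.9 CPM against 29.9, 33.8, 31.6 and 30.2 CPM (-2.64 ± 0.08). The ends of the list were Mcm10, a replication initiation factor, at -5.30 ± 0.21, and Rfc1, the large subunit of the clamp loader, at -0.37 ± 0.07. Clspn, whose promoter with an E2F word is printed above, had the next deepest fall after Mcm10.

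The supply of deoxynucleotides was divided between paralogues. Of 13 tested genes 11 fell and 1 rose, with a median of -1.84. Rrm2, the S-phase subunit of ribonucleotide reductase, was at 207, 229.7, 212 and 213 CPM in the negative gate and 3.41, 1.46, 5.19 and 7.35 CPM in the high gate (-5.72 ± 0.35). Its p53-regulated paralogue Rrm2b was at 15.5, 21.0, 17.3 and 18.0 CPM against 28.6, 44.6, 27.4 and 30.6 CPM (0.85 ± 0.11). The 2 genes therefore moved in opposite directions without overlap of the gates in either. Dck, which phosphorylates salvaged deoxycytidine, fell (-2.42 ± 0.10), and Samhd1, which breaks deoxynucleotides down, had a small fall (-0.22 ± 0.07).

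Mitotic genes had the deepest falls of any list. All 29 tested mitotic kinases, kinesins and cytokinesis genes fell (median -5.62), as did 33 of 34 kinetochore and spindle checkpoint genes (median -4.61), Zwint being the exception at 0.15 ± 0.08 without a call. Kif18b was at 75.1, 80.5, 71.1 and 67.3 CPM in the negative gate and 0.487, 0.203, 0.53 and 0.951 CPM in the high gate, and Cenpf was at 412, 593, 459 and 413 against 3.09, 6.85, 5.19 and 8.08 CPM. Their changes were -7.05 ± 0.28 and -6.39 ± 0.23. The high levels come close to zero, so these fitted folds depend on the few reads that remain. Deep falls in the kinetochore list included Spc24 (-6.60 ± 0.26), Nuf2 (-6.60 ± 0.39) and Ndc80 (-6.18 ± 0.17), subunits of the complex that binds microtubules. The smallest were those of the centromere gene Cenpt (-1.02 ± 0.15) and the checkpoint gene Bub3 (-1.04 ± 0.11).

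**Figure D1:**
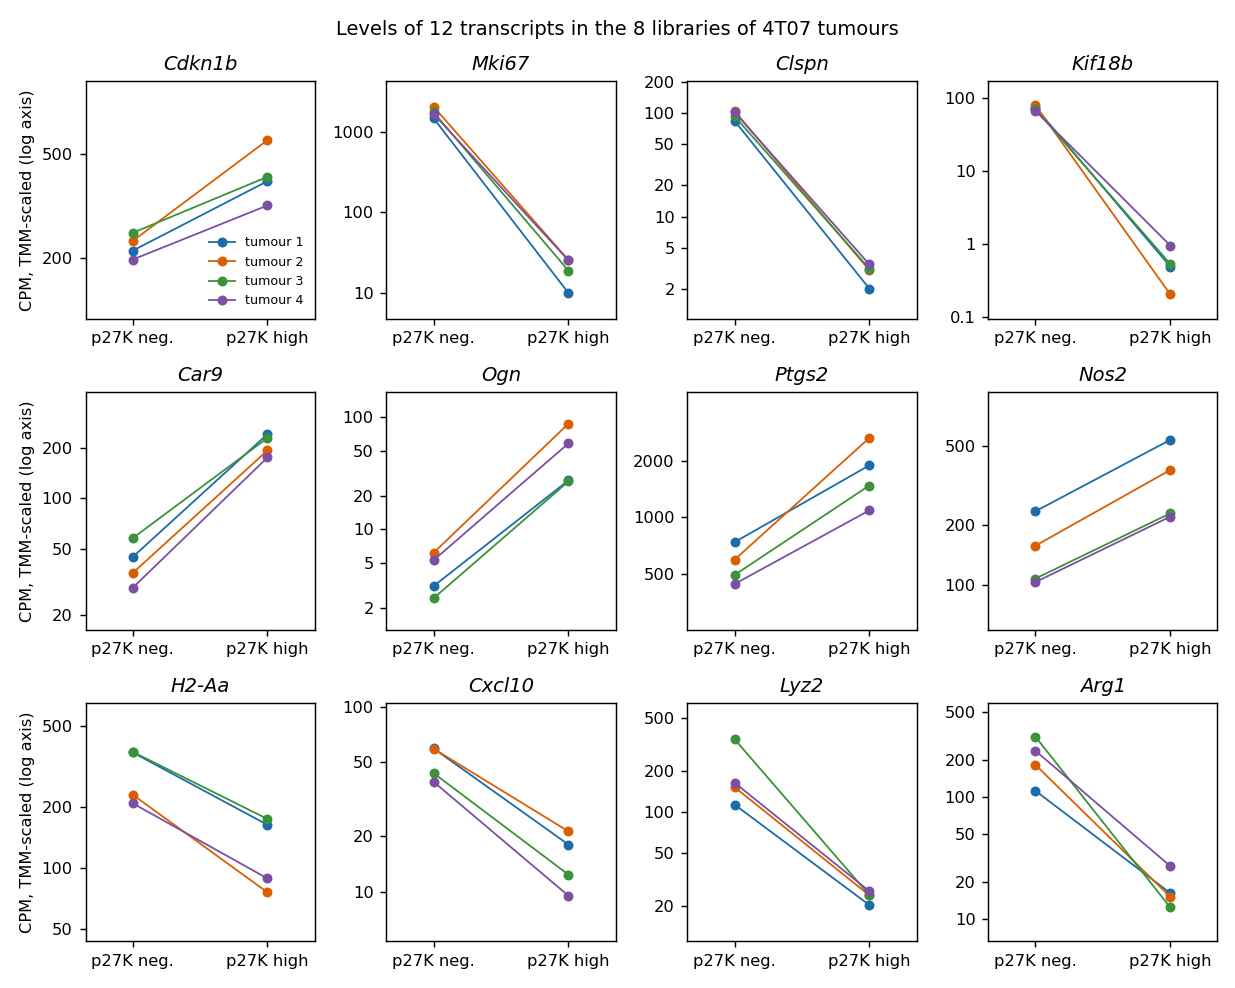
Levels of 12 transcripts in CPM (log axis) in the p27K negative and p27K high library of each 4T07 tumour, with a line joining the 2 gates of a tumour. Cdkn1b, Car9, Ogn, Ptgs2 and Nos2 rise along every line, Mki67, Clspn, Kif18b, H2-Aa, Cxcl10, Lyz2 and Arg1 fall along every line, and the line of tumour 3 is the steepest for Lyz2 and Arg1.

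Of 21 MuvB, E2F and pocket protein genes 15 fell and 1 rose. Foxm1, the activator of late cell cycle genes, was at 226, 219.8, 238 and 238 CPM in the negative gate and 9.93, 6.08, 9.75 and 9.51 CPM in the high gate (-4.72 ± 0.13), and the MuvB partner Mybl2 and the repressor E2f7 changed by -5.34 ± 0.21 and -5.44 ± 0.17. The pocket protein p107, encoded by Rbl1, was at 169, 203, 196 and 197 CPM against 21.7, 29.8, 32.2 and 31.2 CPM (-2.75 ± 0.09). Rbl2, the gene of p130, which is the pocket protein of resting cells, was the only member of this list to rise, from 28.8, 36.8, 35.2 and 30.7 CPM to 38.6, 56.0, 45.5 and 43.6 CPM (0.48 ± 0.09). Rb1 itself had 42.5 to 61.7 CPM in the negative and 39.6 to 84.4 CPM in the high gate, with overlapping gates and no call (0.12 ± 0.11).

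Cyclins and their kinases changed unequally. Among 27 tested genes 11 fell and 5 rose. Ccna2 and Ccnb1, the cyclins of S phase and mitosis, changed by -6.19 ± 0.13 and -6.35 ± 0.25, and Ccne1, the cyclin of S-phase entry, by -3.72 ± 0.16. Ccnd1, the cyclin that growth signals induce, remained abundant at 1076, 1050.3, 1085 and 1118 CPM in the high gate against 1782, 1818, 1641 and 1749.9 CPM (-0.69 ± 0.07). The non-cycling members Ccng1 and Ccng2, both tied to arrest, rose (0.52 ± 0.09 and 0.62 ± 0.13). Of the inhibitors, Cdkn1b rose, Cdkn2c and Cdkn2d fell (-1.08 ± 0.09 and -2.12 ± 0.14), and Cdkn1a, the gene of p21, was at 61.2, 44.6, 54.9 and 53.3 CPM against 63.9, 36.6, 39.6 and 47.9 CPM and was not called (-0.21 ± 0.11).

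Pairs of related chromatin genes also separated. Of 26 tested genes of chromatin maintenance 20 fell and 4 rose. Ezh2, the Polycomb methyltransferase of dividing cells, was at 85.1, 115, 107 and 95.9 CPM in the negative gate and 22.6, 33.8, 25.5 and 21.6 CPM in the high gate (-1.97 ± 0.10). Ezh1, its counterpart of non-dividing cells, was at 38.7, 31.0, 41.1 and 32.1 CPM against 67.7, 62.2, 67.3 and 57.1 CPM (0.84 ± 0.09). Neither gene overlapped between gates. The maintenance methyltransferase Dnmt1 changed by -1.96 ± 0.09 and the de novo enzyme Dnmt3a by 0.34 ± 0.08, and Lmnb1, a lamin lost from senescent and resting nuclei, by -2.79 ± 0.10.

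Of 31 tested members of a list of FOXO factors, their targets and antiproliferative genes 19 rose, 2 fell and 10 were not called, with a median of 0.44. Tob1, an antiproliferative protein, was at 86.6, 98.7, 69.2 and 107 CPM in the negative gate and 156, 269, 143 and 203 CPM in the high gate (1.07 ± 0.11), and Trp53inp1, a stress protein, rose from 7.38, 6.48, 9.00 and 6.67 to 21.0, 26.1, 20.4 and 19.9 CPM (1.57 ± 0.15). The transcription regulator genes Klf9 (1.08 ± 0.08) and Cited2 (1.08 ± 0.11) rose as well. Gas6, a growth arrest gene of fibroblasts that macrophages also make, went the other way, at 1.22, 1.22, 5.53 and 1.76 CPM against 0.139, 0, 0.777 and 0.254 CPM (-3.19 ± 0.48). In the MYC network the repressor gene Mxd4 rose (1.23 ± 0.18), as did Mxi1 (0.95 ± 0.08) and Mnt (0.51 ± 0.08), while Mxd3, the member found in S phase, fell (-5.96 ± 0.30). Myc was slightly higher, at 182, 176, 122 and 167 CPM in the negative gate and 243, 264, 162 and 183 CPM in the high gate (0.38 ± 0.09). Of 23 p53 targets 10 rose, among them Mdm2 (0.60 ± 0.13), Fas (0.95 ± 0.12) and Ccng1, and 4 fell, among them the death gene Pmaip1 (-2.06 ± 0.25).

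Most hypoxia genes were higher in the p27K high cells. Of 33 tested members 24 rose and 2 fell, and the median changes in tumours 1 to 4 were 0.95, 1.06, 0.85 and 0.96. Car9 was at 44.5, 35.8, 57.7 and 29.2 CPM in the negative gate and 241, 192, 228 and 175 CPM in the high gate (2.36 ± 0.11), and Ndrg1, a stress-induced gene, was at 435, 318, 382 and 269 against 1902, 1516, 1450.1 and 1249.8 CPM (2.13 ± 0.09). Bnip3, a mitophagy receptor, was at 76.6, 81.4, 80.5 and 67.9 CPM against 267, 484, 222 and 248 CPM (1.93 ± 0.17). None of the 3 overlapped between gates, and the high library of tumour 2 was the highest for Bnip3 only. The collagen prolyl hydroxylase genes P4ha1 (1.25 ± 0.08) and P4ha2 (1.46 ± 0.08) rose too. The factor genes themselves were not called, with Hif1a at 250.3, 324, 303 and 284 CPM against 328, 652, 312 and 286 CPM (0.36 ± 0.16). The 2 members that fell were both rare: the peptide hormone gene Adm at 0.851 to 1.97 CPM in the negative gate against 0.255 to 0.365 CPM (-2.08 ± 0.37), and the glucose transporter gene Slc2a3 at 0.779 to 1.57 against 0.464 to 0.729 CPM (-1.08 ± 0.37).

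Most glycolysis genes rose. Of 17 glycolysis genes 15 rose and 1 fell, and 2 of the tested members, Slc2a1 and Ldha, are on the hypoxia list too. Slc2a1, the main glucose transporter of tumour cells, was at 352, 251, 271 and 237 CPM in the negative gate and 958, 899, 665 and 594 CPM in the high gate (1.48 ± 0.11). Eno2 and Aldoc, isoforms of enolase and aldolase typical of neurons, rose by 1.62 ± 0.07 and 1.59 ± 0.11. The 1 member that fell was Slc16a3, a lactate exporter, at 8.75, 12.8, 17.1 and 13.9 CPM against 2.46, 1.01, 1.55 and 2.38 CPM (-2.81 ± 0.31). Of 40 genes of oxidative phosphorylation 15 fell, 1 rose and 24 were not called, with a median of -0.23. The falls were 9 without tumour 1. The complex II gene Sdhb fell (-0.74 ± 0.08), as did the cytochrome c gene Cycs (-0.80 ± 0.09).

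Cholesterol genes were mostly lower. Of 27 genes of cholesterol synthesis and uptake 16 fell and 1 rose (median -0.46), and 80.0% of the 20 promoters found for this list held CCAAT, against 39.1% of all tested genes. The word was also frequent in the MHC class II list (80%, 4 of 5) and the kinetochore list (70%, 21 of 30), and less so in the glycolysis list (29.4%, 5 of 17). It was therefore not particular to cholesterol genes. Fdps, the farnesyl diphosphate synthase of the pathway, was at 57.5, 52.2, 56.2 and 53.1 CPM in the negative gate and 22.8, 19.7, 29.6 and 23.5 CPM in the high gate (-1.21 ± 0.11). Abca1, the pump that exports cholesterol, was the 1 member to rise, from 71.6, 66.0, 74.7 and 57.5 CPM to 189, 151, 138 and 190.2 CPM (1.30 ± 0.13). Among serine and one-carbon genes 9 of 20 fell and 6 rose, or 3 without tumour 1. Shmt1 and Shmt2, which feed thymidylate synthesis, changed by -2.12 ± 0.10 and -1.42 ± 0.07, whereas Slc7a11, the cystine importer, rose (0.86 ± 0.10). Of 32 ribosome biogenesis genes 13 fell and 3 rose, with Tcof1 at -1.18 ± 0.11, and the falls were 8 without tumour 1 or without tumour 4. Among 23 initiation factor genes 7 rose and 5 fell, where 22.1% of all genes rose and 23.6% fell. With total count scaling 5 rose and 7 fell, and the falls were 3 without tumour 1, 3 or 4 and 9 without tumour 2. Eif4a2 rose (0.94 ± 0.07) and Eif5a fell (-0.76 ± 0.10). In the lysosome and autophagy list 14 of 29 rose and 1 fell, with the membrane protein Lamp2 at 166, 265, 223 and 227 CPM against 369, 843, 384 and 471 CPM (1.17 ± 0.14) and highest in tumour 2.

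**Figure D2:**
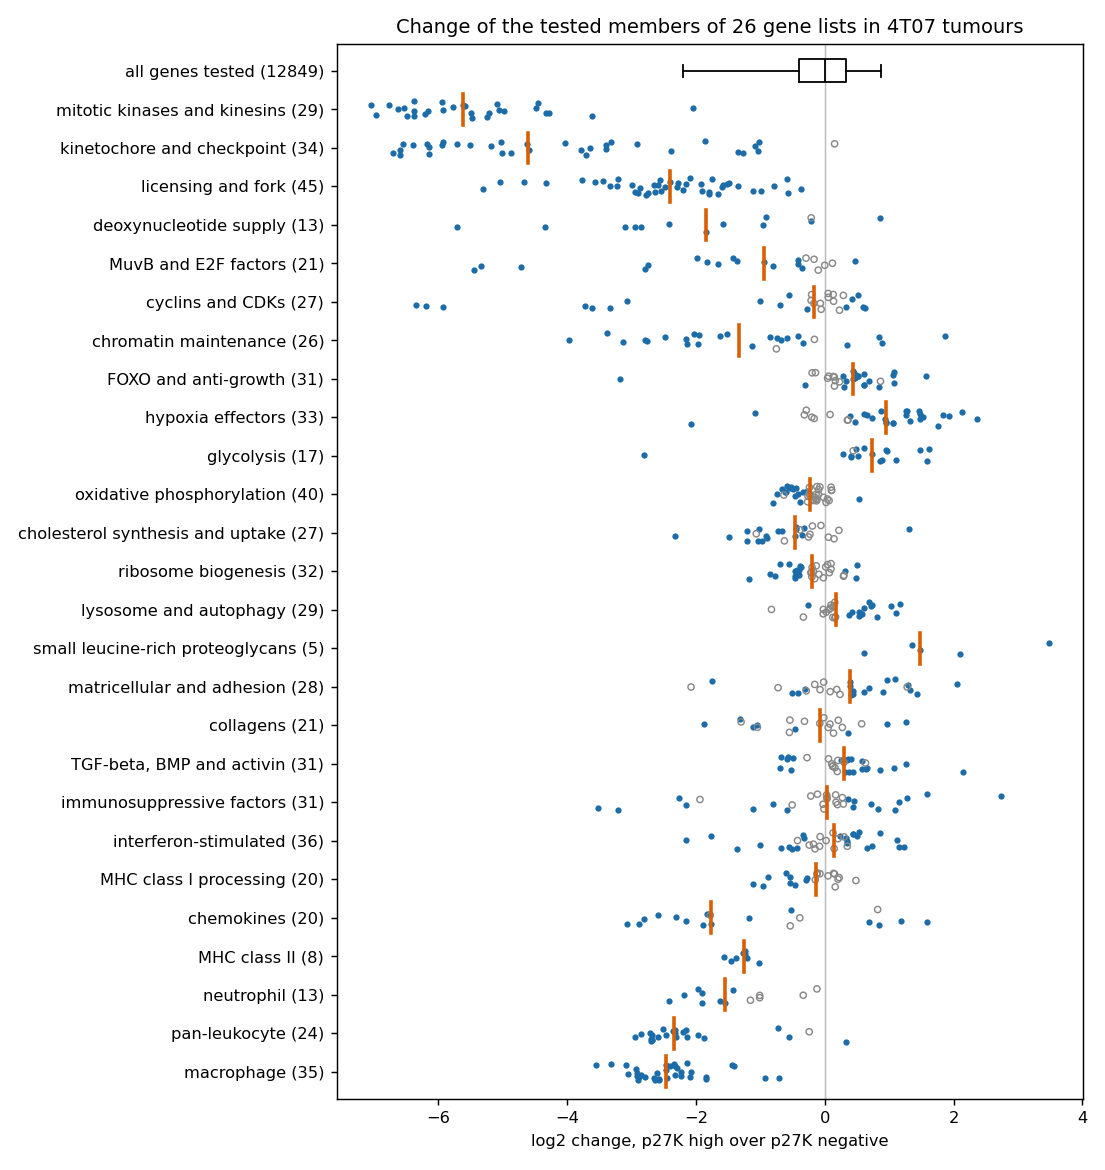
Log2 change of each tested member of 26 gene lists in 4T07, as dots filled for called genes and open for others, with an orange bar at the list's median and the number of members in brackets. The box at the top gives the quartiles and median of all 12849 genes, with whiskers from the 5th to the 95th percentile. The mitotic and kinetochore lists lie farthest left (medians -5.62 and -4.61), and the macrophage and pan-leukocyte lists have medians of -2.46 and -2.34.

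Matrix genes were among the largest rises. All 5 tested small leucine-rich proteoglycans rose, with a median of 1.49, and 7 other members were too low to test. Ogn, which encodes osteoglycin (chromosome 13, 49608046 to 49624501, plus strand), was at 3.11, 6.17, 2.42 and 5.30 CPM in the negative gate and 27.3, 87.6, 26.8 and 58.5 CPM in the high gate. All high libraries lay above all negative ones and the rise was 3.48 ± 0.14 (edgeR adjusted p = 1.87e-06). Dcn, the gene of decorin, a collagen-binding proteoglycan that also binds TGF-beta, was at 245, 388, 155 and 271 CPM against 901, 1566, 704 and 1386 CPM (2.11 ± 0.10). Fn1, which encodes fibronectin and had the highest CPM of the genes that rose (not corrected for gene length), was at 20971, 18537, 16874 and 15300.0 CPM in the negative gate and 52690.0, 41494, 44513 and 40704 CPM in the high gate (1.33 ± 0.08). Spp1, the gene of osteopontin, was at 7186, 8971, 8342 and 8184 CPM against 16908, 27488, 17593 and 19188 CPM (1.29 ± 0.10).

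Of the defining fibroblast genes, Lum had at most 14 counts in any library. The others had more, Pdgfra 10013 to 28896 counts, Dcn 4734 to 43727, Col1a1 390 to 1414 and Pdpn 62 to 478. The summed fibroblast list shares Ogn, Dcn and Pdgfra with the lists described here. Its sum was at 907, 1053, 943 and 1001 CPM in the negative gates and 1811, 2299.9, 1809 and 2601 CPM in the high gates. The part of fibroblasts in these rises was not tested.

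Of 21 tested collagen genes 3 rose and 5 fell, or 1 and 3 without tumour 1, 1 and 4 without tumour 4, and 8 and 8 without tumour 2. Over all genes 22.1% rose and 23.6% fell. The basement membrane chains Col4a1 and Col4a2 fell (-1.05 ± 0.20 and -1.11 ± 0.19), with 231, 198, 149 and 198 CPM in the negative gate and 85.9, 64.9, 119 and 110.1 CPM in the high gate for Col4a1. Col4a5, another chain of collagen IV, rose (0.97 ± 0.14). The fibrillar gene Col1a1 was at 19.3, 11.2, 41.1 and 38.8 CPM against 12.3, 15.8, 24.3 and 31.3 CPM, with overlap and no call (-0.32 ± 0.20). Among proteases and inhibitors 10 of 27 rose and 6 fell, against the same shares of all genes. Mmp2, a gelatinase, was at 24.3, 26.7, 24.2 and 31.8 CPM against 99.6, 122, 90.1 and 155 CPM (2.10 ± 0.10), and its inhibitor gene Timp3 rose too (1.51 ± 0.12). Both the plasminogen activator gene Plau and its receptor gene Plaur fell (-1.14 ± 0.07 and -0.95 ± 0.07), and the activator's inhibitor gene Serpine2 rose (1.05 ± 0.08).

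Gdpd2, a glycerophosphodiester phosphodiesterase, was at 1.86, 1.81, 2.72 and 1.59 CPM in the negative gate and 17.7, 11.7, 17.0 and 16.6 CPM in the high gate (2.99 ± 0.18). Enpp2, which encodes autotaxin, the secreted enzyme that makes lysophosphatidic acid, was at 8.63, 7.65, 6.91 and 7.77 CPM against 37.3, 47.5, 32.9 and 46.1 CPM (2.39 ± 0.12). Both were higher in every high library than in any negative one. Plin4, a lipid droplet coat protein (2.96 ± 0.23), Angptl7, a secreted angiopoietin-like protein (2.74 ± 0.12), and Tnfrsf9, the costimulatory receptor 4-1BB (2.19 ± 0.09), also rose. Among abundant transcripts Fth1, the iron storage ferritin heavy chain, was at 2076, 2142, 1914 and 1889 CPM against 4163, 5103, 3097 and 3135 CPM (0.92 ± 0.11), and Cp, the copper-bound ferroxidase ceruloplasmin, rose (0.93 ± 0.09). The lysosomal protease gene Ctsl rose too (0.68 ± 0.07).

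Among genes with a mean of at least 5 CPM and outside the cell cycle and host lists used here, the 3 deepest falls were those of the DNA helicase gene Pif1 (-7.15 ± 0.38), Pimreg (-7.00 ± 0.29) and the nuclease gene Ankle1 (-6.91 ± 0.37). Pif1 and Ankle1 had 0 CPM in the high library of tumour 2, so their fitted values depend on the prior count. The next falls included Espl1, the separase that cuts cohesin (-6.84 ± 0.32), Pclaf, a partner of the replication clamp (-6.67 ± 0.50), Hmmr (-6.56 ± 0.30), Aspm (-6.49 ± 0.26) and Ube2c, which charges the anaphase-promoting complex with ubiquitin (-6.36 ± 0.23). Of the genes that fell by at least 2-fold 141 were on cell cycle lists, 88 on host lists, 68 on other lists and 1026 on none. Among abundant transcripts Top2a, the topoisomerase of dividing cells, was at 1483, 2084, 1766 and 1608 CPM in the negative gate and 38.0, 48.4, 55.0 and 57.1 CPM in the high gate (-5.13 ± 0.13), while Tubb5, a tubulin (-1.54 ± 0.10), and Actb, the cytoskeletal actin (-0.44 ± 0.09), fell less deeply.

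In the TGF-beta, BMP and activin list 15 of 31 tested members rose, 6 fell and 10 were not called, with a median of 0.30. The rises were 10 with total count scaling and 10 without tumour 4. The activin subunit genes Inhba and Inhbb rose, Inhba from 131, 165, 162 and 113 CPM to 293, 650.5, 292 and 238 CPM (1.26 ± 0.18) and Inhbb by 1.07 ± 0.13. Tgfb3 rose (0.44 ± 0.14), although its tumour 2 pair did not, and Tgfb1 was at 86.1, 98.0, 88.0 and 91.5 CPM against 63.9, 53.4, 65.5 and 60.4 CPM and fell (-0.58 ± 0.10). Tgfbr3, the co-receptor betaglycan, was at 34.9, 27.8, 26.7 and 22.8 CPM against 138, 111, 115 and 129.9 CPM (2.15 ± 0.11). Ctgf, a secreted matrix protein induced by TGF-beta and by YAP, was at 189, 168, 173 and 181 CPM against 696, 656, 752 and 863 CPM (2.05 ± 0.09), while the BMP target Id1 fell (-0.69 ± 0.11). Of 20 receptor tyrosine kinases 7 rose and 6 fell, where 22.1% of all genes rose and 23.6% fell, and 4 rose without tumour 1 or without tumour 4. Pdgfra rose from 312, 319, 328 and 295 CPM to 671, 669, 731 and 736 CPM (1.16 ± 0.08), and Tyro3 and Mertk, receptors of Gas6, fell (-1.61 ± 0.20 and -1.63 ± 0.23).

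Transcripts typical of host cells were then described by lists of leukocyte and stromal genes. Which cells carried them was not tested. Of 116 tested members of the leukocyte lists, MHC class II included, 92 fell and 3 rose, with a median of -2.04. All 35 tested macrophage genes fell, and so did 22 of 24 pan-leukocyte genes. Lyz2, the lysozyme of macrophages and neutrophils (chromosome 10, 117277331 to 117282321, minus strand), was at 114, 153, 346 and 165 CPM in the negative gate and 20.5, 24.2, 24.3 and 26.0 CPM in the high gate. The negative gate of tumour 3 stood above the other 3, the high gates lay close together, and the change was -2.90 ± 0.23. C1qa, a complement gene of tissue macrophages, was at 53.7, 66.3, 133 and 66.1 CPM against 9.84, 7.13, 8.16 and 10.8 CPM (-3.06 ± 0.26), and Itgam, the integrin chain CD11b, at 57.3, 72.6, 102 and 83.0 against 12.95, 6.08, 6.15 and 12.9 CPM (-3.08 ± 0.30).

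Summed over the macrophage list, the level was 1084, 1370.0, 2321 and 1578 CPM of all counts in the negative gates and 301, 299.5, 269 and 335 in the high gates. The negative gates therefore differed by more than 2-fold among tumours while the high gates were within a narrow range. The leukocyte lists together took 0.448%, 0.401%, 0.591% and 0.426% of the counts of the negative libraries and 0.234%, 0.168%, 0.207% and 0.185% of the high ones. Much of what remained in the high gate came from Cd74, F13a1, Itgb2 and Ace. The last 3 rose in place of falling: F13a1, a clotting factor gene of monocytes, was at 141, 153, 117 and 136 CPM against 344, 279.6, 234 and 322 CPM (1.10 ± 0.09), and Ace, the angiotensin-converting enzyme, at 47.3, 49.3, 75.3 and 39.2 against 147, 125, 191 and 98.6 CPM (1.41 ± 0.09). Itgb2, an integrin chain of leukocytes, was at 194, 179, 195 and 158 CPM against 293, 254, 189 and 193 CPM, with overlapping gates (0.33 ± 0.11), and was not called without tumour 1, without tumour 4, with total count scaling, with the stricter filter or without the tumour block. The sum of the monocyte list, which holds F13a1 and Ace, went against the others, at 390.3, 344, 329 and 345 CPM in the negative and 655, 470.4, 550.3 and 544 CPM in the high gates. Ptprc, which encodes CD45, fell, from 19.3, 28.2, 38.6 and 32.3 CPM in the negative to 5.64, 12.5, 4.56 and 8.53 CPM in the high gate (-1.96 ± 0.28).

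**Figure D3:**
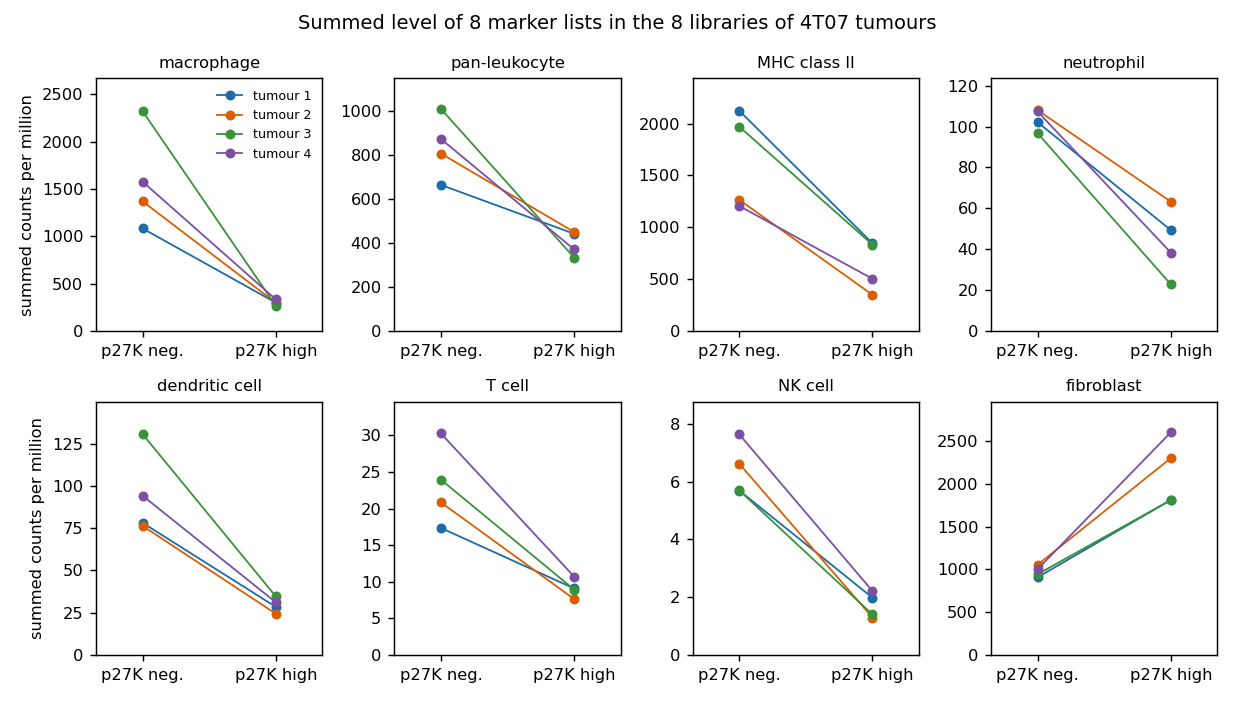
Summed CPM of all counts, without TMM scaling, for 8 marker lists in the p27K negative and p27K high library of each tumour, on linear axes from 0. Macrophage, pan-leukocyte, MHC class II, neutrophil, dendritic, T and NK cell sums are lower in the high gate of every tumour, with tumour 3 highest among the negative gates for macrophages, while the fibroblast sum is higher in every high gate.

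Other leukocyte lists held few counts. In the neutrophil list 8 of 13 tested genes fell (median -1.55), and S100a9, an alarmin of neutrophils and monocytes, was at 30.3, 32.8, 24.2 and 27.9 CPM in the negative gate and 13.9, 17.8, 5.55 and 8.78 CPM in the high gate (-1.43 ± 0.20). Its partner S100a8 was at 14.7, 22.4, 16.0 and 21.2 CPM against 18.0, 34.6, 9.47 and 13.1 CPM, higher in the high gate of tumours 1 and 2, and was not called (-0.12 ± 0.24). Of 10 dendritic cell genes 6 fell, led by Itgax (-2.98 ± 0.23), which macrophages share. Only 9 of 23 T cell genes, 4 of 14 NK cell genes and 2 of 14 B and plasma cell genes had enough counts to be tested, and 3, 3 and 1 of them fell. Without tumour 3 or without tumour 4 1 T cell gene fell and without tumour 2 5 fell, and without tumour 1 1 NK cell gene fell. The T cell receptor gene Cd3d had at most 19 counts in a library, and the B cell gene Ms4a1 at most 6. Cd8a, of cytotoxic T cells, was at 0.518, 0.5, 0.884 and 0.796 CPM against 0.255, 0.122, 0.141 and 0.254 CPM (-1.75 ± 0.46), from 3 to 29 counts per library.

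Among 18 tested fibroblast genes 7 rose and 2 fell, or 7 and 6 without tumour 2 and 6 and 1 without tumour 1, 3 or 4. The rises were carried by Pdgfra, Dcn, Ogn and Clec3b, the last a secreted lectin at 0.396, 0.25, 0.164 and 0.549 CPM in the negative gate against 8.22, 9.08, 3.39 and 13.8 CPM (4.64 ± 0.23), whereas the podoplanin gene Pdpn fell (-2.13 ± 0.20). Pdgfra was at 295 to 328 CPM in the negative gate and 669 to 736 CPM in the high gate. Endothelial genes were low throughout, and 6 of 12 fell, or 3 of 12 without tumour 1 and 2 of 11 without tumour 4. Among them was Pecam1 at 3.14 to 5.57 CPM in the negative and 0.486 to 2.12 CPM in the high gate (-1.59 ± 0.31). The share of stromal cells in these values was not tested.

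The tumours differed in how far several host lists fell. Median changes of the macrophage list in tumours 1 to 4 were -1.97, -2.07, -3.49 and -2.50, so tumour 3 had the deepest fall. The pan-leukocyte list gave -1.76, -1.86, -3.31 and -2.51, and the neutrophil list -1.11, -1.21, -2.41 and -1.49. The monocyte and NK cell lists did not have their deepest median in tumour 3, at -0.99, -0.75, -0.99 and -1.11 for monocyte genes, and -1.32, -2.65, -1.98 and -2.22 for NK cell genes. By contrast the kinetochore list gave -4.71, -4.58, -4.55 and -4.31, and the licensing list -2.29, -2.54, -2.22 and -2.29. The change in tumour 3 minus the mean change of the other 3 tumours had a median of -1.19 over macrophage genes, -1.11 over pan-leukocyte genes, 0.16 over kinetochore genes and 0.01 over all genes tested. It was below 0 for all 35 macrophage genes and above 0 for all 8 MHC class II genes. This measure was chosen after the high macrophage level of the negative gate of tumour 3 had been seen, and it is a description without a test.

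MHC class II genes, which macrophages and dendritic cells express and which interferon gamma can induce in tumour cells, fell with another pattern. All 8 tested members fell, with a median of -1.26 and medians of -1.15, -1.73, -1.13 and -1.17 in tumours 1 to 4. H2-Aa (chromosome 17, 34282744 to 34287823, minus strand) was at 370.4, 229.6, 373 and 208 CPM in the negative gate and 163, 76.0, 174 and 89.0 CPM in the high gate (-1.27 ± 0.10). Tumours 1 and 3 were higher than tumours 2 and 4 in both gates. The transactivator gene Ciita, at 41.6, 28.1, 34.1 and 19.3 CPM against 15.9, 5.59, 14.9 and 7.29 CPM, kept that order in both gates (-1.56 ± 0.19). The macrophage sum had another order in the negative gates, lowest in tumour 1 and highest in tumour 3, and did not separate the tumours in the high gates. Which cells carried the MHC class II transcripts was not tested.

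**Figure D4:**
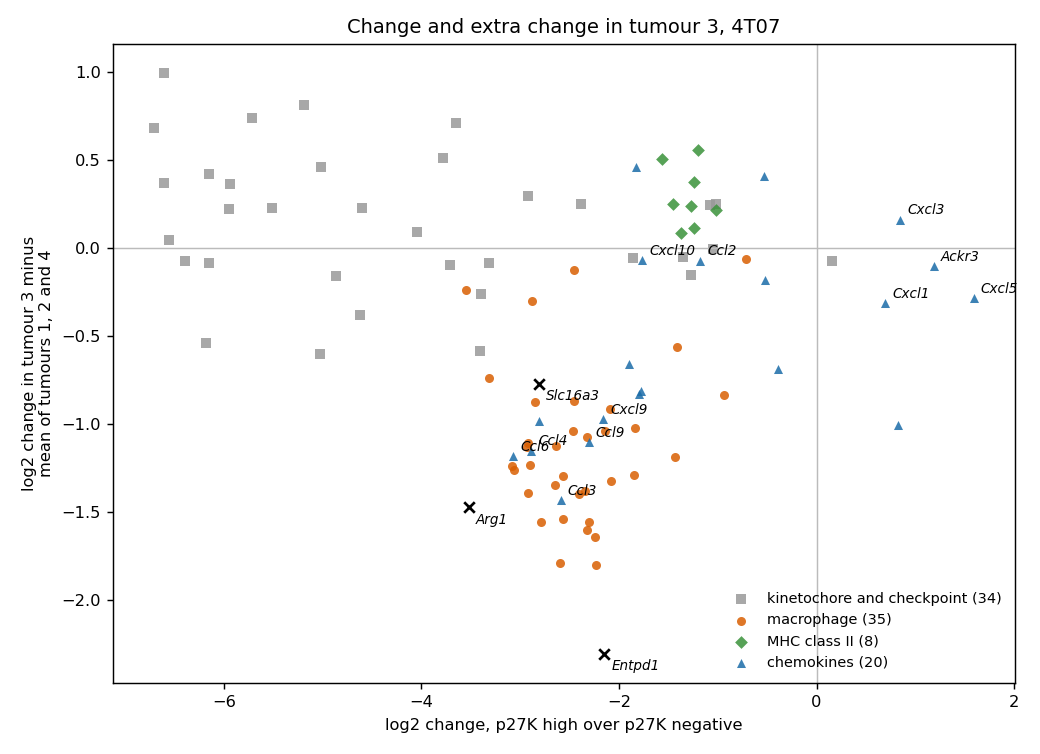
Log2 change (x axis) against the change in tumour 3 minus the mean change of tumours 1, 2 and 4 (y axis, log2) for tested members of 4 gene lists, with some chemokines named and Arg1, Slc16a3 and Entpd1 added as crosses. Macrophage genes all lie below 0 on the y axis, MHC class II genes all above, and the falling chemokines Ccl3, Ccl4, Ccl6 and Ccl9 lie among the macrophage genes while Ccl2 and Cxcl10 lie near 0.

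Of 20 tested chemokine genes and decoy receptors 12 fell and 4 rose. The tumour 3 differences given here are descriptions, and which cells carried these transcripts was not tested. Ccl6, a chemokine of myeloid cells, was at 29.0, 67.8, 95.4 and 91.7 CPM in the negative gate and 5.62, 6.85, 6.04 and 14.1 CPM in the high gate (-3.07 ± 0.25), with a tumour 3 difference of -1.19. Ccl3, Ccl4 and Ccl9, likewise typical of macrophages, fell, with changes of -2.59 ± 0.29, -2.89 ± 0.33 and -2.31 ± 0.22 and tumour 3 differences of -1.44, -1.15 and -1.11. Ccl2, which recruits monocytes and which many tumour cells secrete, was at 77.6, 102, 51.0 and 75.2 CPM against 32.0, 54.2, 21.6 and 30.5 CPM (-1.18 ± 0.10) with a difference of -0.07. Cxcl10, a T cell attractant induced by interferons, was at 59.4, 59.3, 43.7 and 39.3 CPM against 18.0, 21.2, 12.4 and 9.54 CPM (-1.76 ± 0.11) with a difference of -0.07, whereas Cxcl9, of the same receptor, had -0.97 (-2.16 ± 0.20).

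The neutrophil attractants rose. Cxcl5 was at 138, 139, 46.2 and 56.7 CPM in the negative gate and 316, 715, 119.9 and 154 CPM in the high gate (1.59 ± 0.19), and every tumour rose although the gates of different tumours overlapped. Cxcl1 was at 219.9, 268, 125 and 155 CPM against 325, 686, 172 and 204 CPM (0.69 ± 0.16), and Cxcl3 rose by 0.84 ± 0.11. For Cxcl1 and Cxcl5 the pair of tumour 2 had the largest rise. The scavenging receptor gene Ackr3, which removes CXCL12, rose from 307, 307, 187 and 211 CPM to 674, 714, 403 and 517 CPM (1.19 ± 0.07).

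Among factors known to restrain immune cells 10 of 31 tested genes rose and 7 fell (median 0.04), where 22.1% of all genes rose and 23.6% fell, and with total count scaling 8 rose and 10 fell. Ptgs2, the cyclooxygenase of prostaglandin E synthesis (chromosome 1, 150100031 to 150108227, plus strand), was at 739, 596, 495 and 443 CPM in the negative gate and 1889, 2642, 1477 and 1089.7 CPM in the high gate. No high library overlapped a negative one, and the rise was 1.59 ± 0.14 (edgeR adjusted p = 0.000156). Nos2, the inducible nitric oxide synthase, was at 235, 158, 108 and 104 CPM against 538, 379, 229.6 and 221 CPM (1.16 ± 0.07); it rose in each tumour, but the negative gate of tumour 1 was above the high gates of tumours 3 and 4. Nt5e, the ectoenzyme CD73 that makes adenosine, was at 862, 962, 902 and 689 CPM against 1505, 1841, 1598 and 1129 CPM (0.82 ± 0.07). Vegfa (1.28 ± 0.10), the cytokine gene Il11 (1.08 ± 0.13), the decoy receptor gene Il13ra2 (2.73 ± 0.23) and Cd47, the signal against phagocytosis (0.46 ± 0.07), also rose. Cd274, the gene of PD-L1, was at 102, 82.0, 92.5 and 84.1 CPM in the negative gate and 109, 90.5, 78.5 and 92.0 CPM in the high gate, with overlap and no call (0.04 ± 0.09).

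The members of this list that fell included several that macrophages express. Arg1, the arginase of myeloid cells (chromosome 10, 24915221 to 24927484, minus strand), was at 113, 184, 313 and 239.8 CPM in the negative gate and 16.4, 15.2, 12.5 and 27.2 CPM in the high gate (-3.52 ± 0.29). Its negative gates were lowest in tumour 1 and highest in tumour 3, as was the macrophage sum, and its tumour 3 difference was -1.47. That measure was chosen after the macrophage level of tumour 3 had been seen. Which cells carried Arg1 and the other genes of this paragraph was not tested. Entpd1, the ectoenzyme CD39, was at 8.69, 9.04, 18.2 and 11.0 CPM against 3.69, 3.40, 1.13 and 2.22 CPM (-2.15 ± 0.43) with a difference of -2.31, and the costimulator gene Cd86 changed by -2.27 ± 0.53 with a difference of -2.76. Lgals1 and Tgfb1 fell as well (-0.80 ± 0.09 and -0.58 ± 0.10), with differences of 0.19 and 0.21. The lactate exporter Slc16a3, the exception among glycolysis genes, had -0.77, and the heat shock gene Hspa1a (-2.52 ± 0.25) had -1.01.

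Of 36 interferon-stimulated genes 14 rose and 10 fell, where 22.1% of all genes rose and 23.6% fell. With total count scaling 9 rose and 12 fell, and the rises were 9 without tumour 1 and 6 without the tumour block. Ifit1 and Ifit3, antiviral proteins strongly induced by type I interferon, rose: Ifit1 was at 56.0, 60.2, 25.8 and 41.5 CPM in the negative gate and 122, 121, 56.6 and 104 CPM in the high gate (1.15 ± 0.09), and Ifit3 changed by 1.23 ± 0.13. Ifi44 and Isg20 rose by 0.86 ± 0.09 and 1.12 ± 0.17. Among the falls were Irf1, a transcription factor induced by interferon gamma, at 439.7, 368, 447 and 403 CPM against 304, 222, 326 and 287 CPM (-0.55 ± 0.08), and the guanylate-binding protein gene Gbp5 (-0.68 ± 0.09). Irf8, which is also on the dendritic cell list, fell (-1.36 ± 0.09). Of 20 tested antigen processing genes of MHC class I 9 fell, 0 rose and 11 were not called (median -0.13). Of all genes 23.6% fell. With the DESeq2 Wald test, and likewise without tumour 2, 3 of the list rose, and the falls were 5 without the tumour block. Among the falls were the immunoproteasome gene Psmb9 at 120.4, 77.7, 116 and 91.1 CPM against 57.1, 23.5, 61.6 and 53.1 CPM (-1.12 ± 0.15) and the peptide transporter gene Tap1 at -0.88 ± 0.12. Both had their deepest fall in tumour 2. The heavy chain genes H2-K1 (-0.15 ± 0.09) and H2-D1 (0.14 ± 0.08) were not called, nor was B2m, at 1702, 2059.7, 1914 and 2323 CPM in the negative gate and 2248, 4878, 2100.3 and 2608 CPM in the high gate (0.48 ± 0.18), where tumour 2 stood apart.

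Lastly the changes in 4T07 were set against those in D2A1 and EMT6. In a joint edgeR fit that kept each tumour as a block, the gate change of 4T07 was higher than the mean of the other lines for 1632 of 13578 genes (12.0%) and lower for 1721 (12.7%). The lines were sequenced in separate runs, and their deposited counts differ in the genes they list. The counts of 4T07 had 24982 entries, and those of D2A1 and EMT6 49316 each. Genes of the mitochondrial genome took 0.0% of counts in every 4T07 library and 0.81% to 1.94% in those of the other lines. Line, run and way of counting therefore cannot be told apart. Besides this, 3 negative libraries of D2A1 held only 1335433 to 2110563 counts. Values below are in the order 4T07, D2A1 and EMT6.

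In the macrophage list 22 of 35 genes were lower in 4T07 by this test and 0 higher, with median changes of -2.43, -0.42 and -0.43. The pan-leukocyte list had 12 of 24 lower and 0 higher (-2.31, -0.41 and -0.23), and MHC class II 4 of 8 lower (-1.23, -0.15 and -0.54). The neutrophil list had 1 of 12 lower, the monocyte list 1 of 9, the dendritic cell list 1 of 7 and the T cell list 0 of 4, with 0 higher in each, and the NK cell list had 0 of 3 lower and 1 higher. C1qa changed by -3.03, -0.75 and -1.14 (difference -2.08 ± 0.45), and Arg1 by -3.49, -1.18 and -0.24 (difference -2.78 ± 0.74, edgeR adjusted p = 0.0122). The mitotic list was also lower in 4T07, in 22 of 29 genes, with medians of -5.59, -4.79 and -4.72, and Mki67 changed by -6.49, -5.86 and -5.31 (difference -0.91 ± 0.24). Of 28 cholesterol genes 16 were lower in 4T07, with medians of -0.45, 0.05 and 0.00. Ribosome biogenesis went the other way, with 15 of 32 genes higher in 4T07 and medians of -0.17, -0.59 and -0.48. In the hypoxia list 12 of 33 genes were higher and 5 lower in 4T07, with medians of 0.98, 0.96 and 0.61. Car9 was among the higher ones (difference 0.97 ± 0.23).

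Single genes with the largest differences were taken by a rule. The 4 lowest were Slc7a2, a transporter of arginine (difference -4.51 ± 0.37, changes of -3.25, 1.56 and 0.97), Slc7a8 (-4.12 ± 0.68), Samsn1 (-3.99 ± 1.19) and Csf2rb2, a receptor chain of myeloid cells (-3.96 ± 0.66). Samsn1 changed by -1.32, -0.22 and 5.57, so most of its difference came from EMT6, where the standard error was 1.52. Slc7a8 changed by -3.19, -0.02 and 1.88 and Csf2rb2 by -2.66, 0.09 and 2.50, so both also drew on a rise in EMT6 (standard errors 0.90 and 1.06). In 4T07 Slc7a2 was at 12.8, 21.0, 29.0 and 20.7 CPM in the negative gate and 1.51, 3.85, 1.13 and 2.31 CPM in the high gate, with a tumour 3 difference of -1.74. The integrin gene Itgal of leukocytes was lower too (-3.47 ± 0.90). The 8 highest all had a D2A1 change of -3.20 or lower, and among them were Ptgs2 (difference 2.98 ± 0.18, changes of 1.62, -3.22 and 0.49), Rarres2, which encodes the chemoattractant chemerin (3.78 ± 0.63), and Rcn3 (2.56 ± 0.29). Rcn3 changed by 0.51, -4.83 and 0.73, so its difference came from D2A1, and against EMT6 alone it was -0.22. Ctgf changed by 2.08, -1.72 and 0.94 (difference 2.48 ± 0.32).

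**Figure D5:**
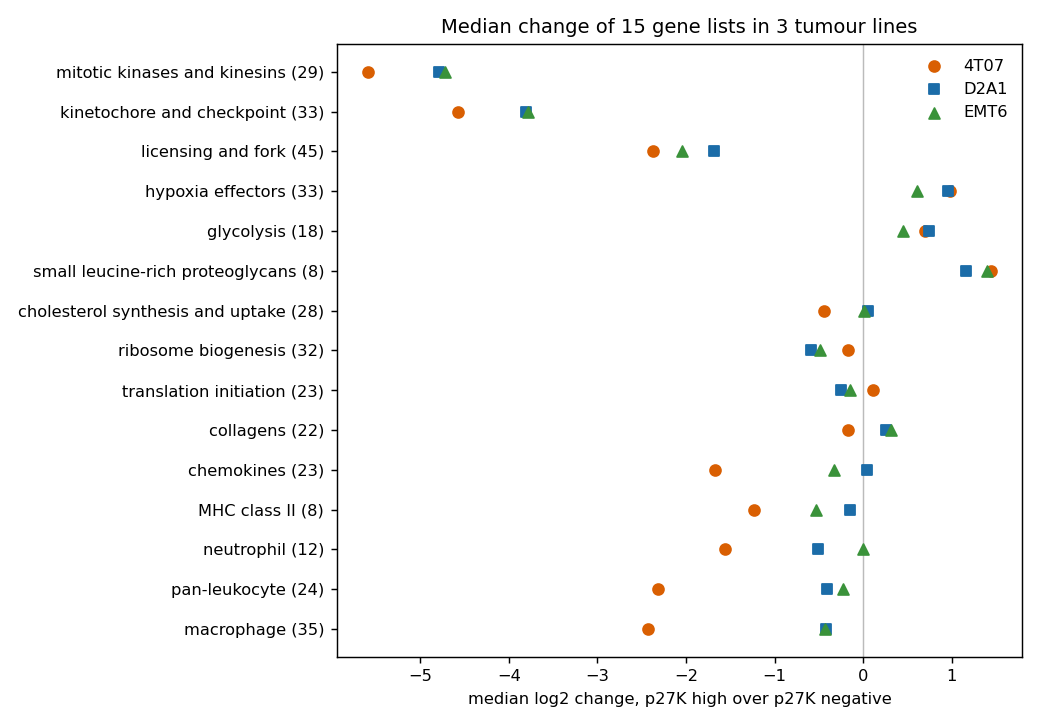
Median log2 change of p27K high over p27K negative for 15 gene lists in 4T07, D2A1 and EMT6, from the joint fit of 24 libraries, with the number of genes in brackets. The macrophage, pan-leukocyte and MHC class II medians of 4T07 lie left of those of the other lines (-2.43, -0.42 and -0.43 for macrophages). The hypoxia medians lie within 0.61 to 0.98, although 12 of 33 hypoxia genes were higher and 5 lower in 4T07.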

How the data were processed

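Per the labels' protocols, cells were dissociated with collagenase IV, hyaluronidase and DNase, red cells were lysed, and cells stained for CD45 and with DAPI were sorted on an AriaIII. RNA was extracted with a miRNeasy Micro kit. The deposited values are gene counts, whole numbers without normalization. Per the submitters' processing notes the build was mm10 and DESeq2 was used. The aligner, counter and strand setting: not given in the sources used here.

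Of 24982 entries for 4T07, 4 ambiguous date-like names were left out, giving 24978 symbols. Counts were filtered with filterByExpr, scaled by TMM and fitted with edgeR 4.0.16 (R 4.3.3, limma 3.58.1) by the quasi-likelihood test, with gate and tumour as terms, over the 8 libraries of 4T07. Standard errors are the log2 change divided by the square root of F. The comparison of lines used 1 fit of all 24 libraries. DESeq2 1.42.0 served as an alternative. Log2 values per tumour used a prior count of 2. Summed list levels and count shares are CPM or per cent of all counts, without TMM scaling. Members of a list can also stand on another.

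Libraries were paired by the tumour number in the column headings. For EMT6 the heading numbers differ from those in the sample titles, so the EMT6 pairs of the joint fit were inferred from the headings. Deviations from the gate means over 5000 genes correlated within the numbers at 0.801, 0.703, 0.609 and 0.195 for tumours 1 to 4 of 4T07. The highest correlations with a library of another number were 0.31, 0.359, 0.31 and 0.359. This check therefore did not single out the pair of tumour 4, which rests on the labels. Within the numbers the correlations were 0.576 to 0.812 in EMT6 and 0.079 to 0.295 in D2A1. On simulated data the test recovered 58% of 1.5-fold, 88% of 2-fold and 98.7% of 4-fold changes in 12849 genes, and 6% of its calls were false. Each of 3 simulations changed 200 genes, as many up as down and none among the lowest counts. In the data 45.7% of genes were called, so these rates are for a setting with far fewer changes. With 4 tumours the precision rests on the spread between tumours, and p-values measure that spread only.

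Genes were named from the 12 highest and 12 lowest changes, the 10 most abundant rises and falls, the 10 lowest falls outside cell cycle and host lists, the 4 members of each list with the smallest p, members needed for their role, and the 8 highest and lowest line differences. Those printed are a part of them. Members and lists were chosen with earlier results of these data known.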

Additional observations from a re-analysis of the deposited data

Results flagged for a closer look

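Of 400 groups of 4 libraries checked, 23 (5.75%) held a library far from the other 3 relative to the range of the group, which chance gives in about 1 in 20. The high library of tumour 2 had 13500 detected genes, and the remaining high libraries 15094 to 15370. In the high gate of tumour 1 this held for Adm at 0.255 CPM (others 0.349 to 0.365 CPM) and Hspa1a at 2.09 CPM (others 1.14 to 1.18 CPM). In the high gate of tumour 2 this held for Bnip3 at 484 CPM (others 222 to 267 CPM), Eif5a at 225 CPM (others 324 to 333 CPM), Foxm1 at 6.08 CPM (others 9.51 to 9.93 CPM) and Hif1a at 652 CPM (others 286 to 328 CPM). It also held there for Inhba at 650.5 CPM (others 238 to 293 CPM), Isg20 at 68.6 CPM (others 30.2 to 34.5 CPM) and Timp3 at 475 CPM (others 282 to 297 CPM). In the high gate of tumour 3 this held for Mxd3 at 0.742 CPM (others 0.209 to 0.254 CPM) and Samsn1 at 7.84 CPM (others 4.30 to 4.83 CPM). In the high gate of tumour 4 this held for Ccl6 at 14.1 CPM (others 5.62 to 6.85 CPM), Plau at 127 CPM (others 88.6 to 94.5 CPM) and Rarres2 at 17.0 CPM (others 3.46 to 4.58 CPM). In the negative gate of tumour 1 this held for Cited2 at 127 CPM (others 112 to 114 CPM) and Prim1 at 47.9 CPM (others 67.0 to 70.4 CPM). In the negative gate of tumour 3 this held for C1qa at 133 CPM (others 53.7 to 66.3 CPM), Ccl4 at 9.33 CPM (others 6.06 to 6.59 CPM), Gas6 at 5.53 CPM (others 1.22 to 1.76 CPM) and Inhbb at 12.96 CPM (others 26.2 to 26.9 CPM). It also held there for Itgal at 22.9 CPM (others 8.90 to 11.3 CPM) and Krt8 at 384 CPM (others 312 to 317 CPM).

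The gate change of 4T07 differed from the mean of D2A1 and EMT6 by edgeR's quasi-likelihood test of the difference for the 20 genes listed here, which are not all of the genes named in the report that passed this test. On the log2 scale it was higher for Igsf10 (3.87), Rarres2 (3.78), Ptgs2 (2.98), Lypd3 (2.82), Ttc9 (2.75), Ttll7 (2.72), Vegfc (2.61), Rcn3 (2.56) and Ctgf (2.48). It was lower for Slc7a2 (-4.51), Slc7a8 (-4.12), Samsn1 (-3.99), Csf2rb2 (-3.96), Pou2af1 (-3.78), Ppp1r3b (-3.54), Itgal (-3.47), Fam20c (-3.39), Arg1 (-2.78), C1qa (-2.08) and Mki67 (-0.91). Line, sequencing run and way of counting cannot be told apart.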

How the results depend on the processing

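The 4T07 gate difference gave 1640 to 3894 rises and 2058 to 3833 falls when each tumour was left out in turn, against 2837 and 3031 with all tumours. The 1640 rises were those without tumour 1. With scaling by total count only, 33.17% of calls were rises, against 48.35% with TMM, and the median of all genes was -0.14. Without the tumour block there were 2001 rises and 2406 falls. For the line comparison the genes called higher and lower in 4T07 numbered 1632 and 1721, and 884 and 2663 with total count only, 859 and 966 with no replicate block, and 1025 and 1014 against EMT6 alone. The log2 ratio of the summed host share was -1.23, and -2.35 with the macrophage list alone.

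Of 170 called genes named here 8 lost their call with no replicate block, 6 without tumour 1, 6 without tumour 3, 7 without tumour 4 and 0 without tumour 2, and none changed direction under these settings. Uncalled genes near 0 changed sign. Cd274 was -0.10 with total count only and -0.00171 to 0.125 when each tumour was left out, and Rb1 was -0.0171 with total count only. Vim was 0.0147 with DESeq2's size factors and with its Wald test, 0.00641 with no replicate block, and -0.0861 to 0.0615 when each tumour was left out. S100a8 was 0.0115 with no replicate block, and -0.37 to 0.0809 when each tumour was left out. Against EMT6 alone the line differences were -0.57 for Ttc9, -1.47 for Vegfc and -0.22 for Rcn3. The cause was not tested. Without tumour 2, whose high library had the fewest genes detected, all 35 macrophage genes, 33 kinetochore genes and 45 licensing genes fell, and collagens gave 8 rises and 8 falls in place of 3 and 5. Low counts limit the T, NK, B cell and endothelial lists.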
